A study of Homo sapiens with 12 samples.

Results

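The transcripts described here encode 58 proteins of mitosis: spindle assembly checkpoint and anaphase genes, the chromosomal passenger complex, mitotic kinases with the phosphatase CDC25C, kinetochore proteins, spindle motors, spindle assembly factors, condensin, TOP2A and MKI67, cytokinesis factors, and the transcription factors FOXM1 and MYBL2. They were chosen by name and function, with earlier results of these data known, so their counts beside all genes are a description. They are 58 of the 30984 genes listed for KYSE30 and of the 78691 genes listed for U138MG, and all 58 held enough reads to be tested in both tables. KYSE30 is a line of esophageal squamous cell carcinoma (ESCC), and U138MG is the line that represents glioblastoma (GBM) in the study. Cells with the genotype label WT received 100 nM PTDSS1i (DS55980254), a small-molecule inhibitor of the phosphatidylserine synthase PTDSS1, or the vehicle DMSO, for 48 h. Poly-A RNA was sequenced from 3 replicates in each of the 4 groups, 12 libraries in all. The sources do not say whether the replicates were separate cultures, so p-values measure the spread between these libraries, which may be technical. The KYSE30 libraries carry the label batch1 and the U138MG libraries the label batch2, so line and batch cannot be told apart.

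During mitosis, condensin compacts the chromosomes, kinetochores couple them to microtubules, and kinesins of the spindle move them. The spindle assembly checkpoint holds anaphase back until every kinetochore is attached, after which separase opens the cohesin rings and the cytokinetic ring divides the cell. Many of these genes are transcribed periodically, with the highest levels in G2 and M phase. The MuvB core, with FOXM1 and B-Myb (MYBL2), activates them through the cell cycle homology region (CHR) of their promoters, and the DREAM complex represses them there in resting cells. NF-Y binds CCAAT boxes in many of the same promoters.

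Total counts per library lay between 18800932 and 26514658. Levels are given as normalized CPM, the CPM of a gene after scaling by TMM factors, and a member is called lower when the Benjamini-Hochberg adjusted p of edgeR's quasi-likelihood test is under 0.05 with a negative log2 fold change. The libraries labelled U138MG held squamous epithelium markers at high levels, with KRT15 at 4500 to 5145 CPM of the library total and CDH1 at 461 to 465 CPM in DMSO. VIM, a defining mesenchymal marker, lay between 0.157 and 0.281 CPM in the same libraries, and S100B and OLIG2 were at 0. Of the 10 squamous markers 8 reached 1 CPM in every DMSO library labelled U138MG, and of the 10 glial and mesenchymal markers 6 did. The squamous markers summed to 7197 to 8016 CPM in DMSO and to 2832 to 2975 CPM in PTDSS1i in these libraries, and the glial and mesenchymal markers to 848 to 879.6 CPM and to 457 to 470.4 CPM. In KYSE30, 7 of the 10 squamous markers reached 1 CPM, with KRT5 at or near 0, and the list summed to 1144 to 1173 CPM in DMSO and to 1699 to 1708 CPM in PTDSS1i. The glial and mesenchymal list summed in KYSE30 to 104 to 159 CPM in DMSO and to 95.2 to 98.0 CPM in PTDSS1i, with GFAP at 0. The part of these marker shifts in the results was not tested. The labels of the U138MG libraries also state the KYSE30 growth medium, whereas the study's methods give DMEM for U138MG, and the name U138MG is used below as a label.

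PTDSS1i lowered mitotic transcripts throughout the list in both lines. In KYSE30, 57 of 58 members were lower by edgeR and 0 were higher, also at an unadjusted p under 0.05, and NUSAP1 passed in neither direction. DESeq2 called 57 members lower in each line. Among all 16389 genes tested in KYSE30, 32.0% were lower and 30.1% higher. In U138MG, 58 of 58 members were lower and 0 were higher, against 33.6% lower and 33.9% higher among the 17666 genes tested. A fall beyond 1 on the log2 scale was reached by 54 members in KYSE30, where 7.04% of tested genes reached it, and by 52 members in U138MG, where 11.6% did. The 3 PTDSS1i libraries lay below all 3 DMSO libraries for 57 members in KYSE30 (34.2% of tested genes) and for 58 in U138MG (35.9% of tested genes). With 3 libraries on each side, the smallest two-sided p that an exact permutation test allows for any gene is 0.1, and each call therefore rests on edgeR's fit to the whole table. In these bulk cultures, fewer cells in G2 or M phase and less RNA per such cell cannot be told apart.

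The median log2 fold change of the 58 members was -1.55 in KYSE30 and -1.60 in U138MG, where the median of all tested genes was -0.03 in each line. With library size alone in place of TMM factors, the median of all genes moved by -0.10 in KYSE30 and by -0.15 in U138MG, and the share of lower among all calls went from 51.5% to 62.2% and from 49.8% to 62.9%. Upper-quartile scaling moved it by -0.02 and by -0.15. PTDSS1i left the median member at 34.1% of its DMSO level in KYSE30 and at 32.9% in U138MG. In KYSE30, 46 members were left at under 40% of DMSO, 10 at 40% to under 60%, and 2 at 60% or more. In U138MG these counts were 41, 14 and 3. Summed over the list, normalized CPM ran from 6155 to 6571 in the KYSE30 DMSO libraries and from 2230 to 2351 in the PTDSS1i libraries, so the treated sum was 35.9% of the vehicle sum. In U138MG the sum ran from 4012 to 4295 in DMSO and from 1466 to 1496 in PTDSS1i, or 35.7% of the vehicle sum. The ranges of the summed levels did not overlap between treatments in either line.

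**Figure D1:**
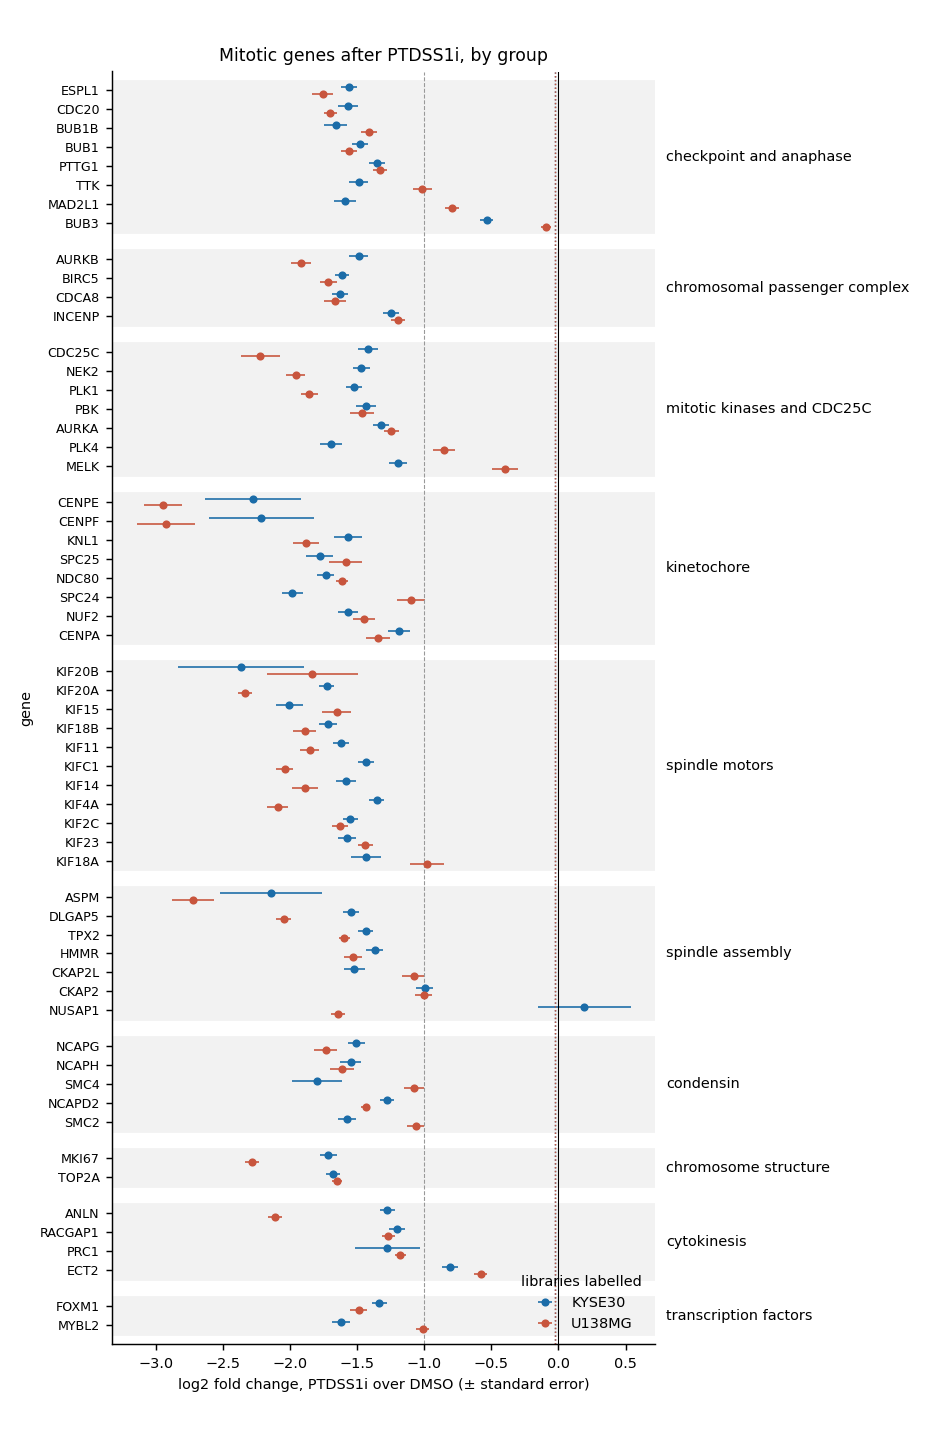
Log2 fold change of PTDSS1i over DMSO on the x axis for each of the 58 members, grouped on the y axis, in KYSE30 (blue) and U138MG (red), with points at the edgeR estimate and bars of 1 standard error; dotted lines mark the median of all tested genes and the dashed line a log2 fold change of -1. All points but NUSAP1 in KYSE30 (0.19) lie left of 0, the farthest being CENPE in U138MG (-2.95), and BUB3 in U138MG (-0.10) lies closest to 0 among those that passed.

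**Figure D2:**
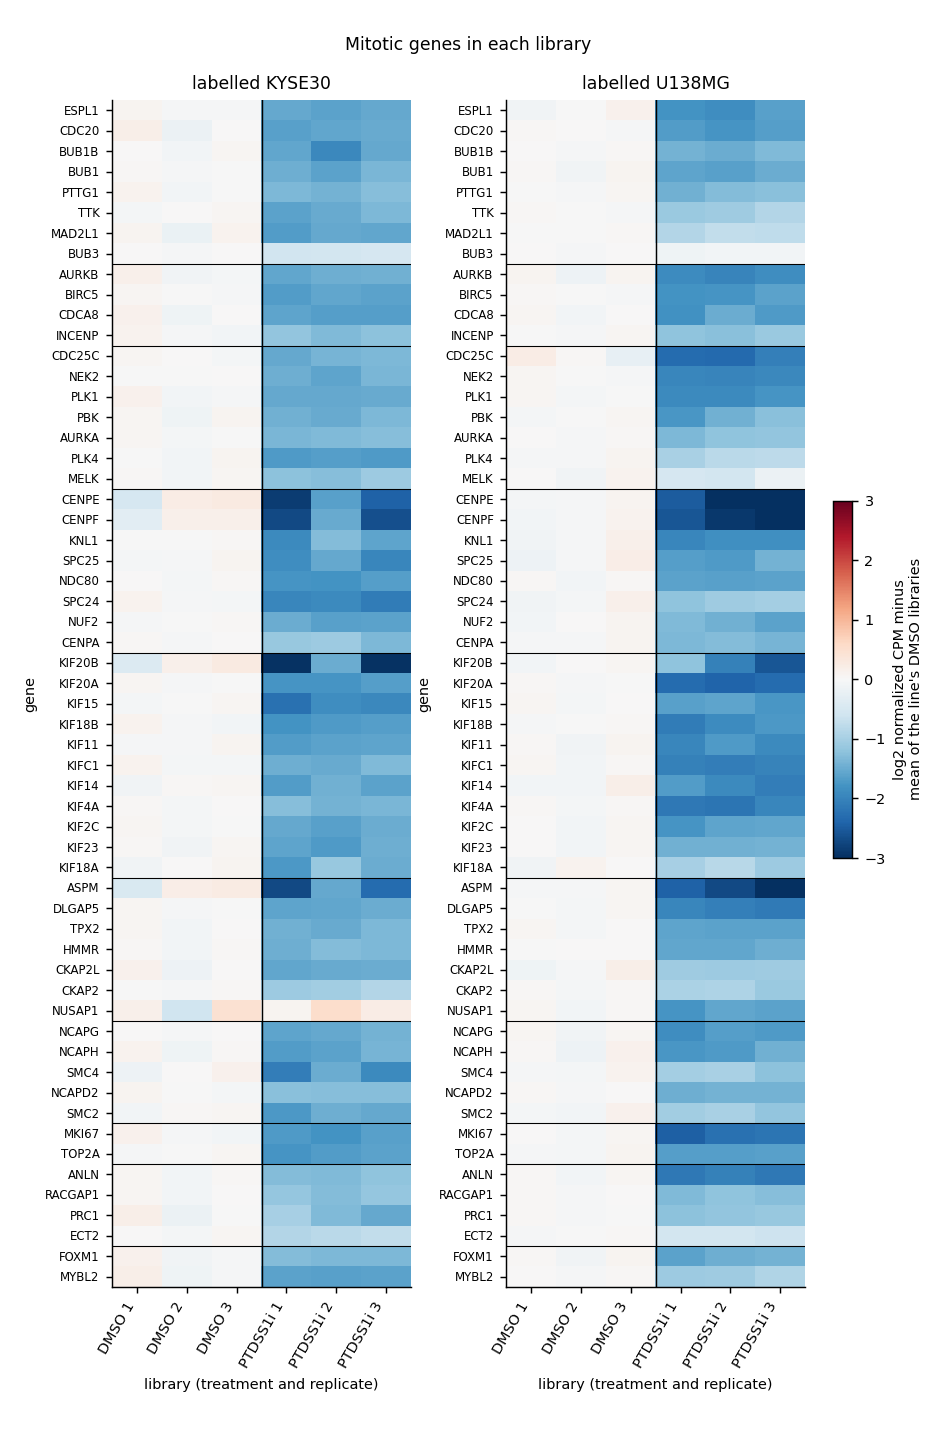
Heat map of log2 normalized CPM minus the mean of the line's own DMSO libraries for 58 members (rows, by group) in the 12 libraries (columns), on a color scale from -3 to 3. The PTDSS1i columns are blue for every row but NUSAP1 in KYSE30 and are nearly white for BUB3 in U138MG, and CENPE, CENPF, KIF20B and ASPM differ in depth between the PTDSS1i replicates of a line.

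Promoters were examined because the members moved together. Windows of 300 bases, from 250 bases before to 50 after the start site, were taken from RefSeq (GRCh38.p14), the first listed for each gene, and 49 of 58 members matched; BUB3, TTK, BIRC5, AURKA, PBK, KNL1, TPX2, RACGAP1 and FOXM1 have no entry in the table. For 7 members more than 1 window is listed, and only the first was searched. The CHR was searched as TTTGAA, its reverse complement TTCAAA, or TTCGAA, and the CCAAT box as CCAAT or ATTGG. A CHR lay in the windows of 37 members (75.5%), against 16.6% of 27305 genes with a window. A CCAAT box lay in 34 members (69.4%), against 35.7% of all genes, and 23 members (46.9%) held 2 or more CCAAT boxes, against 11.3%. Windows with a CHR and a CCAAT box made up 57.1% of the members and 6.58% of all genes. The CHR nearest to the start site lay at a median of -18 bases, within a range of -151 to 41, and 29 members (59.2%) had one between -60 and 30, against 4.66% of all genes; these bounds were set after the positions were seen. By group, a CHR lay in 9 of 11 spindle motor windows, 5 of 7 kinetochore windows, 4 of 5 condensin windows, 3 of 3 cytokinesis windows and 2 of 5 kinase windows. The letters are a description of the windows, and 2 members had a CHR and a CCAAT match that share a base. The 27305 genes were not limited to genes tested here, whereas all members were tested. No shares were counted for other cell cycle genes, so the motif content cannot be called particular to the members.

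**Figure D3:**
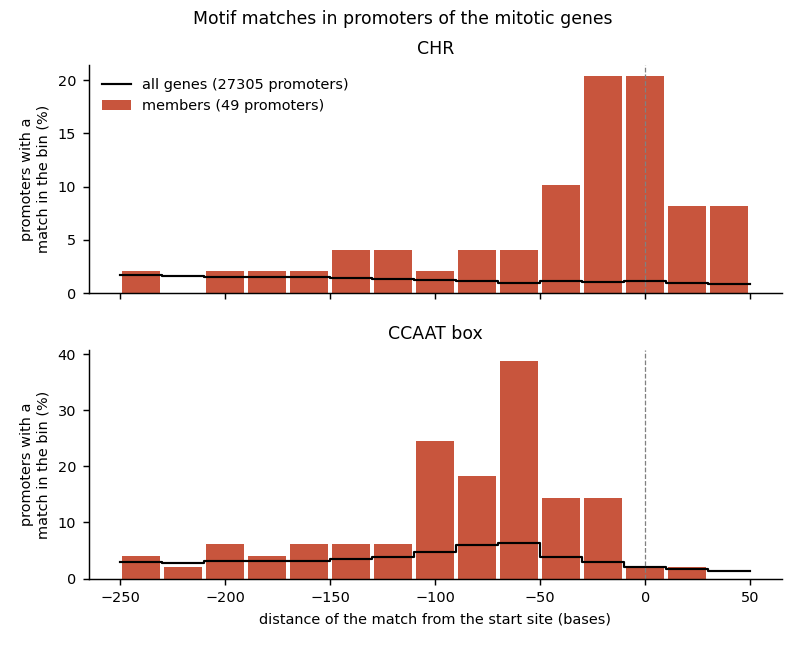
Share of promoters (y axis, percent) with a CHR match (top) or CCAAT box match (bottom) that starts in each bin of 20 bases, by distance from the start site (x axis, bases), for the 49 members with a window (bars) and for all 27305 genes (line). The members' CHR matches peak at 20.4% in the 2 bins that span -30 to 10, where all genes are at 1.07% and 1.16%, and their CCAAT matches peak at 38.8% between -70 and -50, where all genes are at 6.34%.

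The windows of the members with the most negative log2 fold change in each line, KIF20B (chr10:89701340-89701639, plus strand) and CENPE (chr4:103198294-103198593, minus strand), and of NUSAP1 (chr15:41332631-41332930, plus strand), which had the least negative value in KYSE30, are printed to show how far the motif content differed at the ends of the range. Capitals mark CHR and CCAAT box letters.
KIF20B: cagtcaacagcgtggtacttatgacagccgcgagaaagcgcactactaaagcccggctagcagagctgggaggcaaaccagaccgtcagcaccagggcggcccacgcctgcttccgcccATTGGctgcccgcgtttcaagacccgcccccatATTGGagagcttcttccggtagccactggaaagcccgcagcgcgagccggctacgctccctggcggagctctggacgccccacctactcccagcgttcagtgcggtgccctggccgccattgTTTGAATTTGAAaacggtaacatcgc
CENPE: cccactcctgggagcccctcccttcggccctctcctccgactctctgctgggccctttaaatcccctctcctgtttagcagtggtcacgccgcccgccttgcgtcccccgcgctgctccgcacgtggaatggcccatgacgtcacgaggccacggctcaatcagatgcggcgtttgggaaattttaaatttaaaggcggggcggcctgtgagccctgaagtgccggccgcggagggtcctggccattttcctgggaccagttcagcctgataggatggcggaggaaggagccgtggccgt
NUSAP1: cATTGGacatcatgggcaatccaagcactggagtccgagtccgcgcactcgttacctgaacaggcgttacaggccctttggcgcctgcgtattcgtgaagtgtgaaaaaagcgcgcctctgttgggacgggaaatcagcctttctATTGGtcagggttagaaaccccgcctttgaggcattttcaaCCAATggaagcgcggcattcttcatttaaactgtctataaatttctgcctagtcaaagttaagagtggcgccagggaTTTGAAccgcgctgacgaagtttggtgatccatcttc
KIF20B held 2 adjoining CHR matches after the start site and 2 CCAAT boxes, whereas CENPE held no match to the searched forms of either motif. The CENPE window does hold the letters TTTAAA, and other forms of the CHR were not searched, so a CHR there is not excluded. NUSAP1 held 1 CHR at 14 bases after the start site and 3 CCAAT boxes.

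For the members with the largest fall of their group in U138MG that had a CHR, 30 bases around the CHR nearest to the start site are shown, with CHR letters in capitals, to show the sequence in which the element lies: ESPL1 (chr12:53268256-53268285, plus strand), ASPM (chr1:197146765-197146794, minus), NCAPG (chr4:17810932-17810961, plus), MKI67 (chr10:128126435-128126464, minus) and ANLN (chr7:36389830-36389859, plus).
ESPL1: cagccgcggataTTTGAAaggagggtctgg
ASPM: cggatgcaatcaTTCAAAtgaagcgccgcc
NCAPG: tcgcgggaattaTTTGAAcgttcgagcggt
MKI67: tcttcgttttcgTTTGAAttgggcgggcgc
ANLN: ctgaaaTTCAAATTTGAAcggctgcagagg
ANLN carried a pair of adjoining CHR matches on opposite strands. In ESPL1, NCAPG, MKI67 and ANLN the CHR nearest to the start site lay at -31, -35, -29 and -20 bases, and in ASPM it lay at -113. AURKB, CDC25C and KIF20A, the largest falls of 3 other groups, had no match to the searched CHR forms in their first listed windows. Sequence outside these windows and other forms of the CHR were not searched, so a CHR in these genes is not excluded.

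The kinetochore group was lower for 8 of 8 members in each line, all beyond 1 on the log2 scale, with a median log2 fold change of -1.76 in KYSE30 and -1.60 in U138MG. CENPE, the kinesin that carries chromosomes to the spindle equator, fell most of the group in both lines. In U138MG its normalized CPM was 26.2, 26.7 and 29.1 in the DMSO libraries and 4.83, 3.13 and 2.72 in the PTDSS1i libraries. This is a log2 fold change of -2.95 with a standard error of 0.14 (edgeR adjusted p = 9.86e-11), and the treated mean was 13.0% of the vehicle mean. In KYSE30 CENPE measured 7.92, 13.1 and 13.4 in DMSO and 1.54, 3.62 and 2.06 in PTDSS1i, a log2 fold change of -2.28 with a standard error of 0.36 (edgeR adjusted p = 0.00237). With the replicate number as a block in the KYSE30 fit, CENPE had -2.28 with a standard error of 0.15 (edgeR adjusted p = 8.88e-11). The treatments did not overlap in either line, but the spread within each KYSE30 group was wide. CENPF, a large coiled-coil protein of the outer kinetochore, had a like spread, with 75.5, 104 and 104 in KYSE30 DMSO and 14.2, 32.6 and 14.9 in PTDSS1i (log2 fold change -2.22, standard error 0.39, edgeR adjusted p = 0.00779). Its U138MG log2 fold change was -2.93 (standard error 0.21, edgeR adjusted p = 0.000276).

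The 4 measured subunits of the NDC80 complex, which binds microtubules directly, were NDC80, NUF2, SPC24 and SPC25. NDC80 itself had tight replicates, with 91.9, 86.6 and 93.2 normalized CPM in KYSE30 DMSO and 26.6, 26.0 and 28.9 in PTDSS1i. The log2 fold changes of NDC80, NUF2, SPC24 and SPC25 in KYSE30 were -1.74, -1.57, -1.98 and -1.78, and in U138MG they were -1.61, -1.45, -1.10 and -1.59. Within this complex only SPC24 passed the test of a different change between the lines, with a smaller fall in U138MG (difference 0.84, standard error 0.13, edgeR adjusted p = 2.37e-06). KNL1, the scaffold that recruits checkpoint proteins, had log2 fold changes of -1.57 in KYSE30 and -1.88 in U138MG. CENPA, the histone H3 variant that marks centromeres, had the smallest fall of the group in KYSE30 (-1.19) and -1.34 in U138MG.

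CENPE, CENPF, ASPM and KIF20B had PTDSS1i replicates in KYSE30 that differed by at least 2-fold, where the median member's largest and smallest PTDSS1i libraries differed by 0.16 on the log2 scale. For all 4, KYSE30 PTDSS1i replicate 2 was the highest treated library and DMSO replicate 1 the lowest vehicle library. In U138MG, PTDSS1i replicate 1 was the highest and replicate 3 the lowest of the treated libraries for all 4, and only KIF20B differed by at least 2-fold. The longest transcripts of CENPE, ASPM and KIF20B measure 8612, 10887 and 6419 bases with 35.3%, 37.1% and 34.2% GC, and that of CENPF 10307 bases with 40.8% GC. Across the 871 KYSE30 genes with transcripts of 5000 bases or more and a GC content under 40%, the median deviation from the group mean on the log2 scale was -0.06, 0.01 and 0.06 in the vehicle libraries and -0.04, 0.01 and 0.03 in the treated ones, each in the order of the replicate numbers. In U138MG this median over 898 genes was 0.01, 0.03 and -0.04 in the treated libraries. The part of transcript length and base composition in the spread of these members was not tested. Leaving out KYSE30 DMSO replicate 1 and PTDSS1i replicate 2, a choice made after the data were seen, gave log2 fold changes of -2.85 for CENPE, -2.69 for ASPM and -3.16 for KIF20B. These were the lowest vehicle and the highest treated library of each gene, so leaving them out could only enlarge the falls.

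**Figure D4:**
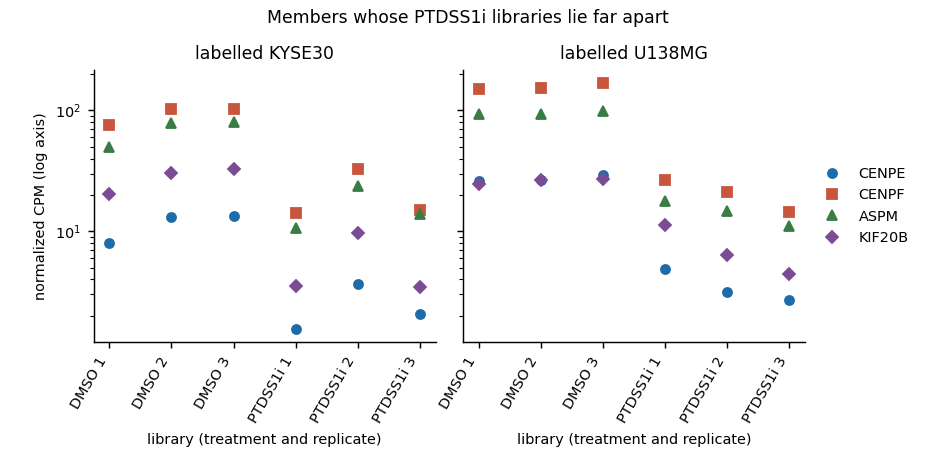
Normalized CPM on a log axis (y) of CENPE, CENPF, ASPM and KIF20B in each library (x), in KYSE30 (left) and U138MG (right), with 1 point per library. In KYSE30 PTDSS1i replicate 2 lies above the other treated libraries for all 4 genes and DMSO replicate 1 lies lowest among the vehicle libraries, and in U138MG the treated levels are highest in replicate 1.

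The checkpoint and anaphase group was lower for 8 of 8 members in each line, with medians of -1.53 in KYSE30 and -1.37 in U138MG. BUB1B (BubR1), a checkpoint protein that inhibits the anaphase-promoting complex, fell most in KYSE30, from 52.4, 49.1 and 53.8 to 17.6, 13.5 and 17.9 normalized CPM. Its log2 fold change was -1.66 with a standard error of 0.08 (edgeR adjusted p = 1.22e-12), and in U138MG it was -1.41. ESPL1, the protease separase, fell most in U138MG, from 34.4, 36.1 and 39.8 to 10.5, 10.1 and 11.9 (log2 fold change -1.76, standard error 0.08, edgeR adjusted p = 2.4e-17), and had -1.56 in KYSE30. CDC20, the activator of the anaphase-promoting complex, had log2 fold changes of -1.57 and -1.70, and PTTG1, the separase inhibitor securin, -1.35 and -1.33.

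MAD2L1, the MAD2 protein of the checkpoint, measured 46.1, 37.8 and 46.9 normalized CPM in KYSE30 DMSO and 13.7, 15 and 14.8 in PTDSS1i. In U138MG it measured 62.3, 61.7 and 63.8 in DMSO and 33.9, 37.8 and 37.0 in PTDSS1i. The treatments did not overlap in either line, and the log2 fold change was -1.59 in KYSE30 and -0.79 in U138MG, a difference of 0.76 with a standard error of 0.10 (edgeR adjusted p = 2.17e-07). TTK, the MPS1 kinase that starts checkpoint signaling, also had the smaller fall in U138MG, with -1.01 against -1.49.

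BUB3, named here after its values were seen, was the member that changed least in U138MG. This WD-repeat protein brings BUB1 and BubR1 to the kinetochore. It measured 113, 109.8 and 113 normalized CPM in U138MG DMSO and 103, 105 and 106 in PTDSS1i, a log2 fold change of -0.10 with a standard error of 0.04 (edgeR adjusted p = 0.0275). The 2 groups of libraries did not overlap but stood close together. The call was lost under DESeq2 (adjusted p = 0.252), without a filter on low counts (edgeR adjusted p = 0.265), with both lines fitted together (0.0610) and without U138MG DMSO replicate 1 (0.0770) or 3 (0.10) or PTDSS1i replicate 1 (0.158) or 2 (0.10). In KYSE30 BUB3 fell from 168, 162 and 168 to 112, 114 and 118, a log2 fold change of -0.53 with a standard error of 0.05 (edgeR adjusted p = 4.88e-09), and it was left at 69.0% of DMSO.

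The chromosomal passenger complex corrects wrong attachments and later guides cytokinesis. All 4 of its subunits were lower in each line beyond 1 on the log2 scale, with medians of -1.55 in KYSE30 and -1.69 in U138MG. CDCA8 (borealin) led in KYSE30, from 141, 119 and 130.1 to 43.3, 41.6 and 41.2 normalized CPM (log2 fold change -1.63, standard error 0.06, edgeR adjusted p = 2.17e-15). AURKB, its kinase, led in U138MG, from 47.2, 40.6 and 47.3 to 12.1, 11.4 and 12.3 (log2 fold change -1.92, standard error 0.08, edgeR adjusted p = 5.61e-19), and had -1.49 in KYSE30. BIRC5 (survivin) had -1.61 and -1.72, and the scaffold INCENP -1.25 and -1.19. The difference between the lines passed the test for AURKB among the 4.

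The 6 mitotic kinases and CDC25C, the phosphatase that activates CDK1, were lower in 7 of 7 cases in each line, with medians of -1.44 in KYSE30 and -1.47 in U138MG. PLK4, the kinase of centriole duplication, fell most in KYSE30, from 30, 28.6 and 31.9 to 9.23, 9.53 and 9.25 normalized CPM (log2 fold change -1.70, standard error 0.08, edgeR adjusted p = 8.02e-14). In U138MG it fell from 23.3, 23.2 and 25.0 to 12.2, 13.6 and 13.7, a log2 fold change of -0.85. CDC25C showed the larger fall in U138MG, from 14.4, 12.6 and 10.4 to 2.5, 2.44 and 2.99 (log2 fold change -2.22, standard error 0.15, edgeR adjusted p = 7.82e-14), against -1.42 in KYSE30.

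PLK1 and NEK2, kinases of centrosome maturation and separation, had log2 fold changes of -1.52 and -1.47 in KYSE30 and of -1.86 and -1.96 in U138MG. AURKA, the kinase of spindle poles, had -1.32 and -1.25 in the same order of lines, and PBK had -1.44 and -1.47. MELK, named after its values were seen, fell by 1.2 on the log2 scale in KYSE30 but had the weakest fall of this group in U138MG, from 44.4, 41.0 and 47.1 to 31.1, 30.3 and 38.9 normalized CPM (log2 fold change -0.40, standard error 0.10, edgeR adjusted p = 0.00486). The highest treated MELK library in U138MG lay just under the lowest vehicle library.

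The 11 spindle motors, all kinesins, were lower in 11 of 11 cases in each line, with medians of -1.58 in KYSE30 and -1.86 in U138MG. In KYSE30 all 11 fell beyond 1 on the log2 scale, and in U138MG 10 did, KIF18A being at -0.98. KIF20B (MPP1), a kinesin of the midzone and midbody, had the most negative estimate of all members in KYSE30. It measured 20.4, 30.2 and 32.6 normalized CPM in KYSE30 DMSO and 3.5, 9.63 and 3.47 in PTDSS1i (log2 fold change -2.36, standard error 0.47, edgeR adjusted p = 0.0118). With the replicate number as a block, KIF20B had -2.39 in KYSE30 (standard error 0.41, edgeR adjusted p = 0.0287). Its U138MG libraries measured 24.8, 26.4 and 27.3 in DMSO and 11.3, 6.40 and 4.43 in PTDSS1i (log2 fold change -1.84, standard error 0.34, edgeR adjusted p = 0.00837). Its treated libraries were thus the least uniform of the list, although neither line had an overlap. Without KYSE30 PTDSS1i replicate 2, its highest treated library there, its log2 fold change was -2.99, a shift whose direction that choice fixed.

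KIF20A (MKLP2), which takes the passenger complex to the central spindle, had close replicates in both lines. In KYSE30 it measured 202, 189 and 193 normalized CPM in DMSO and 57.2, 57.1 and 61.8 in PTDSS1i, a log2 fold change of -1.73 with a standard error of 0.05 (edgeR adjusted p = 1.08e-16). In U138MG it measured 93.5, 88.9 and 89.5 in DMSO and 18.2, 17.2 and 18.3 in PTDSS1i, a log2 fold change of -2.34 with a standard error of 0.05 (edgeR adjusted p = 1.57e-24). The difference, U138MG minus KYSE30, was -0.65 with a standard error of 0.07 (edgeR adjusted p = 8.66e-09).

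KIF4A, the chromokinesin that limits midzone length, and KIFC1, a minus-end motor that clusters spindle poles, showed the same order of lines. KIF4A went from 122, 115 and 121 to 49.1, 44.5 and 46.3 normalized CPM in KYSE30 and from 39.4, 36.4 and 38.9 to 8.60, 8.38 and 9.82 in U138MG. Its log2 fold changes were -1.36 and -2.09, a difference of -0.78 with a standard error of 0.09 (edgeR adjusted p = 2.08e-08). KIFC1 went from 123, 108 and 109 to 40.9, 39.8 and 44.8 in KYSE30 and from 61.4, 55.0 and 59.5 to 14.3, 13.8 and 14.5 in U138MG, with a difference of -0.65 (standard error 0.09, edgeR adjusted p = 4.8e-07). For both kinesins the treated levels in either line stayed below every vehicle library. In the annotation, 12.7% of the exon bases of KIFC1 lie under another gene (RPL12P1). Such overlaps reach 10% or more for 8 members, among them FOXM1 (15.9%, ITFG2), PLK1 (12.5%, ERN2 and AC008870.3) and BUB1B (10.2%, BUB1B-PAK6), and their counts are uncertain.

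The other kinesins were lower in both lines as well. KIF11 (Eg5), which pushes the spindle poles apart, had log2 fold changes of -1.62 in KYSE30 and -1.86 in U138MG, and KIF15, which acts beside it, had -2.01 and -1.65. KIF2C (MCAK), a microtubule depolymerase, had -1.55 and -1.63, KIF18B -1.72 and -1.89, KIF14 -1.58 and -1.89, and KIF23 (MKLP1), a subunit of centralspindlin, -1.58 and -1.44. KIF18A, which dampens chromosome oscillation, had -1.44 and -0.98.

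Spindle assembly factors were lower for 6 of 7 members in KYSE30 and for 7 of 7 in U138MG, with medians of -1.44 and -1.60. ASPM, a protein of the spindle poles, fell most in both lines. Its normalized CPM was 50.1, 78.6 and 80.7 in KYSE30 DMSO and 10.5, 23.6 and 13.9 in PTDSS1i (log2 fold change -2.14, standard error 0.38, edgeR adjusted p = 0.00795). In U138MG it was 93.6, 93.5 and 99.8 in DMSO and 17.9, 14.6 and 11.1 in PTDSS1i (log2 fold change -2.73, standard error 0.16, edgeR adjusted p = 5.03e-05). The vehicle libraries of U138MG were close, and the treated ones were not. With the replicate number as a block, ASPM had -2.16 in KYSE30 (standard error 0.18, edgeR adjusted p = 0.00125). TPX2, the activator of Aurora A on microtubules, had log2 fold changes of -1.44 and -1.60, HMMR -1.37 and -1.53, and DLGAP5 (HURP), which stabilizes kinetochore fibers, -1.55 and -2.05. CKAP2 changed by -1.0 in each line and CKAP2L by -1.52 in KYSE30 and -1.08 in U138MG.

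NUSAP1, a microtubule-bundling protein, was the exception in KYSE30. It measured 0.586, 0.353 and 0.723 normalized CPM in KYSE30 DMSO and 0.559, 0.765 and 0.619 in PTDSS1i, with overlapping groups, 7 to 17 reads per library and a log2 fold change of 0.19 with a standard error of 0.34 (edgeR adjusted p = 0.645). On these few reads a fall of the size seen in the other members was not shown for NUSAP1. The difference from U138MG was -1.87, with an unadjusted 95% interval from -2.50 to -1.24. Whether so few reads represent NUSAP1 was not tested. Its U138MG libraries measured 101, 91.5 and 98.5 in DMSO and 28.6, 32.6 and 31.7 in PTDSS1i, a log2 fold change of -1.65 with a standard error of 0.05 (edgeR adjusted p = 8.62e-21). In GENCODE release 29 on GRCh38, NUSAP1 lies at chr15:41332694-41381050 and 62.2% of its exon bases are shared with the exons of AC087721.2. The 2 tables list different numbers of genes, and how reads over shared exons were counted is not given in the sources used here.

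The 5 condensin members, which include the SMC2 and SMC4 core shared by both condensins and 3 subunits of condensin I, were all lower beyond 1 on the log2 scale in each line, with medians of -1.55 in KYSE30 and -1.44 in U138MG. SMC4 fell most in KYSE30, from 242, 273 and 295 to 64.0, 96.6 and 72.0 normalized CPM (log2 fold change -1.80, standard error 0.19, edgeR adjusted p = 0.000901), with treated replicate 2 again highest. In U138MG it fell from 159, 154 and 173 to 79.4, 82.6 and 68.6, a log2 fold change of -1.08. NCAPG fell most in U138MG, from 31.3, 27.6 and 31.0 to 8.16, 9.48 and 9.26 (log2 fold change -1.74, standard error 0.09, edgeR adjusted p = 1.1e-16), and had -1.51 in KYSE30. The core and the condensin I subunits ordered the lines differently. SMC2 and SMC4 fell more in KYSE30, with differences of 0.48 and 0.69, and NCAPG and NCAPD2 fell more in U138MG, with differences of -0.27 and -0.20, all past the test. NCAPH had -1.55 and -1.62, a difference of -0.11 with a 95% interval from -0.37 to 0.15. Exons of other genes cover 33.1% of the NCAPG exon bases (LCORL) and 25.6% of those of SMC4 (IFT80 and TRIM59).

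MKI67, a protein that coats mitotic chromosomes, measured 370.2, 329.6 and 323 normalized CPM in KYSE30 DMSO and 104, 97.9 and 109 in PTDSS1i (log2 fold change -1.71, standard error 0.06, edgeR adjusted p = 5.12e-16). In U138MG it measured 182, 174 and 188 in DMSO and 33.5, 38.7 and 39.6 in PTDSS1i (log2 fold change -2.29, standard error 0.05, edgeR adjusted p = 2.12e-19). The fall was larger in U138MG, with a difference of -0.61. TOP2A, the topoisomerase that untangles sister chromatids, had nearly the same log2 fold change in the lines, -1.68 and -1.65, with a difference of -0.01 and a 95% interval from -0.14 to 0.12.

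The cytokinesis group of PRC1, ANLN, ECT2 and RACGAP1 was lower for 4 of 4 members in each line, and its median was the least negative of the kinetochore, motor, condensin and cytokinesis groups, at -1.24 in KYSE30 and -1.22 in U138MG. ANLN (anillin), the scaffold of the contractile ring, measured 256, 230.2 and 250.2 normalized CPM in KYSE30 DMSO and 100.2, 98.5 and 105 in PTDSS1i, a log2 fold change of -1.27 with a standard error of 0.05 (edgeR adjusted p = 1.2e-14). Its U138MG libraries measured 123, 114 and 125 in DMSO and 27.2, 29.5 and 27.2 in PTDSS1i, a log2 fold change of -2.11 with a standard error of 0.05 (edgeR adjusted p = 4.45e-24). ANLN had the smallest p of all members in the test of a difference between the lines (difference -0.88, standard error 0.08, edgeR adjusted p = 2.16e-11).

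ECT2, the exchange factor that activates RhoA, fell less, by 0.81 on the log2 scale in KYSE30 and by 0.58 in U138MG. RACGAP1, a subunit of centralspindlin, had -1.2 and -1.27, a difference of -0.10 with a 95% interval from -0.25 to 0.05. PRC1, which crosslinks the midzone microtubules, measured 2.30, 1.82 and 2.04 normalized CPM in KYSE30 DMSO and 1.03, 0.816 and 0.702 in PTDSS1i (log2 fold change -1.28, standard error 0.24, edgeR adjusted p = 9.88e-05). The largest PRC1 count in a KYSE30 library was 48. In U138MG it measured 178, 169 and 173 in DMSO and 74.2, 76.6 and 79.2 in PTDSS1i (log2 fold change -1.18, standard error 0.04, edgeR adjusted p = 8.92e-21). PRC1 shares 58.4% of its exon bases with PRC1-AS1 and AC068831.7, and levels are not compared across the 2 tables, which were normalized separately. With the kinesins KIF4A, KIF14, KIF20A, KIF20B and KIF23 counted as cytokinesis genes, as their midzone roles allow, the group's median was -1.36 in KYSE30 and -1.84 in U138MG.

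The transcription factors FOXM1 and MYBL2 were lower in both lines. MYBL2 fell most in KYSE30, from 201, 163 and 175 to 59.0, 57.5 and 58.4 normalized CPM (log2 fold change -1.62, standard error 0.07, edgeR adjusted p = 2.4e-14), and in U138MG it fell from 86.5, 84.7 and 88.0 to 40.7, 41.2 and 46.5 (log2 fold change -1.01, standard error 0.05, edgeR adjusted p = 1.48e-16). FOXM1 fell most in U138MG, from 64.6, 58.2 and 66.8 to 20.8, 22.9 and 23.6 (log2 fold change -1.49, standard error 0.06, edgeR adjusted p = 4.83e-18), and had -1.33 in KYSE30. Each factor's treated libraries lay below its vehicle libraries in both lines. The MYBL2 difference between the lines was 0.57 and passed the test, and the FOXM1 difference was -0.19 with an unadjusted 95% interval from -0.37 to -0.02 and an edgeR adjusted p of 0.0707, which did not pass.

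The order of the 4 structural groups by median was kinetochore (-1.76), spindle motors (-1.58), condensin (-1.55) and cytokinesis (-1.24) in KYSE30. In U138MG it was spindle motors (-1.86), kinetochore (-1.60), condensin (-1.44) and cytokinesis (-1.22). The ranges of the groups overlapped in both lines, and no test was made of the order. With CENPE counted as a motor and the midzone kinesins as cytokinesis genes, the order in U138MG was spindle motors (-1.86), cytokinesis (-1.84), kinetochore (-1.59) and condensin.

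Whether PTDSS1i changed a member by a different amount in the lines was tested by the interaction term of a joint edgeR fit. It covered 18405 shared genes that passed the filter of that fit. Only 13990 genes were tested in both lines by the separate fits, so the shares of all genes include genes too low to test in 1 line. The change differed for 28 of 58 members. It was more negative in U138MG for 16 members, a direction in which 24.4% of tested genes passed, and more negative in KYSE30 for 12, a direction in which 25.5% passed, so the members' shares lay near those of all genes. The count of 16 rose to 27 with upper-quartile normalization and to 26 with an offset for GC content and length. The members with a larger fall in U138MG included 5 spindle motors (KIF20A, KIF4A, KIFC1, KIF14 and KIF11) and 3 spindle assembly genes (NUSAP1, DLGAP5 and TPX2), besides CDC25C, NEK2, PLK1, AURKB, MKI67, ANLN, NCAPG and NCAPD2. For NUSAP1 the difference of -1.87 rests on the 7 to 17 reads per KYSE30 library. The members with a larger fall in KYSE30 were the checkpoint genes MAD2L1, TTK and BUB3, the kinases PLK4 and MELK, the kinetochore gene SPC24, the condensin core genes SMC2 and SMC4, and MYBL2, KIF18A, CKAP2L and ECT2. For 30 members the difference did not pass. For CENPE, CENPF, ASPM and KIF20B the approximate 95% intervals were wide. They ran from -1.60 to 0.18, from -1.63 to 0.13, from -1.45 to 0.21 and from -0.68 to 1.66. These bounds are normal approximations from an unpaired fit, and they are too narrow for genes whose replicates spread this far.

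**Figure D5:**
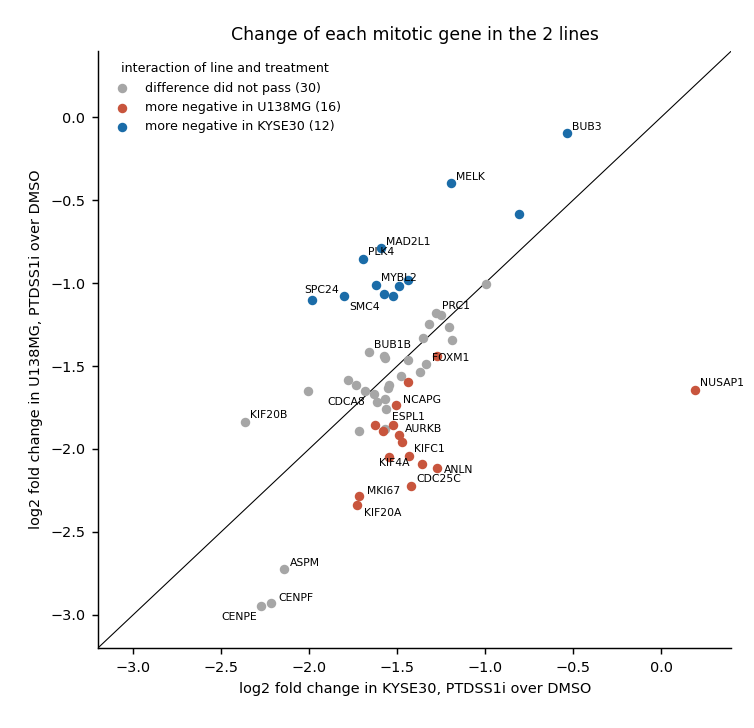
Log2 fold change of each of the 58 members in KYSE30 (x axis) against U138MG (y axis), 1 point per gene, colored by the interaction test of line and treatment; the diagonal marks equal change. ANLN, KIF4A, KIFC1 and KIF20A lie below the diagonal, MAD2L1, PLK4, MELK and SPC24 lie above it, and NUSAP1 lies alone at the right with 0.19 in KYSE30.

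Over the 57 members lower in both lines, Pearson's r between the log2 fold changes of the lines was 0.60 and Spearman's rho was 0.37, as a description over genes that share their libraries. CENPE, CENPF and ASPM lay at the far end in both lines.

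A wider set of 126 genes of the mitotic apparatus, none of them members, was listed by name in 7 lists, also with earlier results known. In KYSE30, 95 of 125 tested genes were lower and 12 higher, with a median log2 fold change of -0.80. In U138MG, 83 of 126 were lower and 25 higher, with a median of -0.38. The centromere list, with the CCAN proteins that sit on CENPA chromatin, had 18 of 19 lower in KYSE30 (median -1.38) and 17 of 19 in U138MG (median -0.67). Further outer kinetochore and checkpoint genes had 16 of 17 lower in KYSE30 (median -1.31) and 12 of 18 in U138MG (median -0.50). Spindle and centrosome genes had 26 of 30 lower in KYSE30 (median -0.74) and 20 of 30 in U138MG (median -0.32), and condensin II and cohesin genes 8 of 13 (median -0.50) and 9 of 13 (median -0.37). The anaphase-promoting complex list had 12 of 18 lower in KYSE30 (median -0.36) and 11 of 18 in U138MG (median -0.16), and the mitotic entry list 8 of 10 (median -1.20) and 6 of 10 (median -0.57). Cytokinesis and abscission genes lay near the shares of all tested genes, 32.0% lower and 30.1% higher in KYSE30 and 33.6% and 33.9% in U138MG, with 7 of 18 lower and 6 higher in KYSE30 (median -0.04) and 8 lower and 5 higher in U138MG (median -0.09).

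Among these other mitotic genes the largest falls in KYSE30 were of ZWINT, a kinetochore protein that binds KNL1 (log2 fold change -2.01, standard error 0.06), the augmin subunit HAUS7 (-1.95, standard error 0.32) and CENPM (-1.86, standard error 0.09). HAUS7 was low: its 3 vehicle libraries averaged 1.31 ± 0.176 normalized CPM and its treated ones 0.334 ± 0.0920 (mean ± SD). Whether so few reads represent HAUS7 was not tested. In U138MG, where its vehicle libraries averaged 11.4, HAUS7 did not pass (log2 fold change 0.10, edgeR adjusted p = 0.405). The largest rises in KYSE30 were of PDCD6IP (0.44), SEPTIN9 (0.40) and TSG101 (0.35), genes of abscission and of the septin ring. In U138MG the largest falls were of GTSE1, a microtubule-binding protein of G2 and S phase (-2.59, standard error 0.09), FAM83D, which recruits casein kinase to the spindle (-2.10, standard error 0.07), and CCNF, cyclin F (-2.01, standard error 0.08). The largest rise was of the augmin subunit HAUS6, whose normalized CPM went from 36.5 ± 1.29 to 126 ± 6.21 (mean ± SD of 3 libraries). This is a log2 fold change of 1.79 with a standard error of 0.05 (edgeR adjusted p = 5.73e-23). In KYSE30 HAUS6 was lower (-0.72, edgeR adjusted p = 7.15e-09). Of the other augmin subunits in U138MG, HAUS2 rose (0.50) and HAUS7 did not pass. HAUS1 (-0.49), HAUS3 (-0.25), HAUS4 (-0.77), HAUS5 (-0.63) and HAUS8 (-0.56) were lower. ANAPC10 (0.72) and SEPTIN11 (0.65) also rose in U138MG.

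A list of 45 genes of DNA replication, another set of cell cycle genes, was lower for 44 of 45 genes in KYSE30 with a median log2 fold change of -1.57, and for 33 of 45 in U138MG, with 2 higher and a median of -0.43. The members had medians of -1.55 and -1.60 in the same order of lines. The list of DREAM, MuvB and NF-Y subunits was lower for 12 of 15 genes in KYSE30 (median -0.55) and for 9 of 15 in U138MG (median -0.25), with 1 and 5 higher. Among all tested genes, 32.0% were lower and 30.1% higher in KYSE30, and 33.6% and 33.9% in U138MG. Binding of these proteins to the promoter matches printed above was not measured.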

How the data were processed

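Poly-A RNA of 12 libraries was sequenced, and the raw counts that the authors deposited, 1 table per line, are reads assigned to each gene and are not normalized. The submitters' processing notes name Trimmomatic, STAR, featureCounts and the build hg38. The annotation release, the strand setting and the treatment of reads that fit several genes are not given in the sources used here, so members whose exons overlap other genes are uncertain. The labels gave each library's group and number, with 3 replicates per group.

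The tests were run with edgeR 4.0.16, which uses limma 3.58.1, under R 4.3.3; DESeq2 1.42.0 served as an alternative. Summaries and plots used Python 3.11.15, pandas 2.3.3 and matplotlib 3.10.9. The filterByExpr rule (counts of at least 10, total of at least 15) selected genes, which were scaled by TMM and tested within each line by the robust quasi-likelihood test, two-sided, with Benjamini-Hochberg adjustment over all genes tested. The difference between the lines was the interaction of line and treatment. Scripts were tested on simulated data. The biological coefficient of variation was 0.055 in KYSE30 and 0.045 in U138MG. In the smallest library of each line 3 counts correspond to 0.160 and 0.157 CPM, which covers counting error only. No 2 replicates agreed within sampling noise (the smallest chi-square divided by its degrees of freedom was 2.29).

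In KYSE30 the same-numbered DMSO and PTDSS1i libraries deviated together from their group means (r = 0.21, 0.16 and 0.14 over 11416 genes), so the label numbers were taken to pair the KYSE30 libraries. The main KYSE30 tests left this pairing out. Their standard errors and p-values are those of unpaired libraries, save where a block is named. Positions, exon overlaps, transcript lengths and GC content came from GENCODE release 29 (GRCh38). Members and gene lists were chosen with earlier results of these data known. Members with values in every library were, per group and line, the one with the largest absolute log2 fold change, any member not lower, and the 5 with the smallest p of the interaction; CENPF, NDC80, BUB3 and MELK were added after their values were seen. Of the other mitotic genes, the 3 most negative and the 3 most positive log2 fold changes past the test were named in each line. Alternatives were other scalings and filters, DESeq2, blocking on the replicate number, leaving out single libraries, a joint fit of the lines and another grouping of kinesins. A GC and length offset, and leaving out 2 KYSE30 libraries, were added after seeing the data.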

Additional observations from a re-analysis of the deposited data

Results flagged for a closer look

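The change with PTDSS1i differed between the lines for 28 members by the interaction of line and treatment in edgeR, and each difference is given here as the log2 fold change in U138MG minus that in KYSE30. Among all genes tested, 24.4% passed with the more negative change in U138MG and 25.5% with that in KYSE30, so the members' count is near the background. Line, batch and table cannot be told apart. Differences below 0, with the larger fall in U138MG, were found for NUSAP1 (-1.87), ANLN (-0.88), CDC25C (-0.84), KIF4A (-0.78), KIF20A (-0.65), KIFC1 (-0.65), MKI67 (-0.61), DLGAP5 (-0.54), NEK2 (-0.53), AURKB (-0.47), PLK1 (-0.37), KIF14 (-0.35), KIF11 (-0.27), NCAPG (-0.27), NCAPD2 (-0.20) and TPX2 (-0.20). Differences above 0, with the larger fall in KYSE30, were found for ECT2 (0.19), BUB3 (0.40), CKAP2L (0.40), KIF18A (0.41), TTK (0.44), SMC2 (0.48), MYBL2 (0.57), SMC4 (0.69), MELK (0.76), MAD2L1 (0.76), PLK4 (0.80) and SPC24 (0.84). The NUSAP1 difference rests on 7 to 17 reads per KYSE30 library.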

How the results depend on the processing

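The direction of the members held under the alternatives run, with NUSAP1 in KYSE30 as the exception: without DMSO replicate 2 its log2 fold change was -0.038 (edgeR adjusted p = 0.934), and over the 6 fits that each lacked 1 library the range was -0.038 to 0.44. With library size alone the median log2 fold change in KYSE30 was -1.65 for all members, -1.69 for spindle motors, -1.65 for condensin and -1.34 for cytokinesis. In U138MG the medians of members, kinetochore, spindle motors, condensin and cytokinesis were -1.75, -1.75, -2.0, -1.59 and -1.37 with library size alone and -1.75, -1.75, -2.0, -1.58 and -1.37 with upper-quartile normalization. The GC and length offset gave -1.47 for the members and -1.59 for kinetochore genes in KYSE30. Leaving out KYSE30 DMSO replicate 1 and PTDSS1i replicate 2 gave -1.49 for the members, -1.64 for motors and -1.14 for cytokinesis. The other grouping of kinesins put cytokinesis at -1.36 in KYSE30 and -1.84 in U138MG. The count of members with a larger fall in U138MG was 27 with upper-quartile normalization and 26 with the offset, against 16. With each library left out in turn, the members' median ran from -1.58 to -1.50 in KYSE30 and from -1.64 to -1.55 in U138MG, and that of motors from -1.63 to -1.56 and from -1.90 to -1.79. The causes of these shifts were not tested.

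A replicate block left 57 members lower in KYSE30, with no call changed. In U138MG the same-numbered libraries had deviations correlated at -0.21, -0.10 and 0.15 over 11901 genes, so the numbers were not taken to pair them. The highest correlations were of DMSO replicate 2 with PTDSS1i replicate 1 (0.29), DMSO 1 with PTDSS1i 2 (0.17) and DMSO 3 with PTDSS1i 3 (0.15). A pairing in that order was not tested. The block there left 57 lower, with KIF20B at -1.87 (edgeR adjusted p = 0.0546). The interaction with the block called 31 members, 12 more negative in KYSE30 and 19 in U138MG. The count of members that differ between the lines ran from 25 to 36 across the other alternatives and from 23 (without U138MG PTDSS1i replicate 1) to 33 (without KYSE30 DMSO replicate 1) when single libraries were left out. The few reads on NUSAP1 and PRC1 in KYSE30 limit their precision, and the cause of the low counts was not tested.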
